A study of Mus musculus with 2 samples.

Results

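Axon guidance ligands and receptors were examined in 2 mouse osteosarcoma cell lines, LM8 and Dunn. The genes were those whose symbols name semaphorins and plexins, Eph receptors and ephrins, Slits and Robos, neuropilins, netrins and the netrin receptors Unc5a, Unc5b, Unc5c, Dcc and Neo1. A probe set, the group of array probes that reports on 1 transcript, was included when the array's annotation gave it such a symbol and no other. This took 154 of 45101 probe sets and 67 of 18193 genes. The rule used no measured value. The symbol rule also took Plxna4os1, an antisense-named transcript of the Plxna4 locus that is no plexin and was not measured in either line.

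LM8 is a highly metastatic subline of Dunn that was obtained by selection in mice for spread to the lung. Dunn is the parental line and is described as non-metastatic in the labels. Both were grown untreated in the same medium with 10% serum and 1% non-essential amino acids, and RNA of each (10 µg) was hybridised to 1 Affymetrix mouse genome array. With 1 array per line there is no replicate error, so nothing below was tested. The number of arrays limits the precision, and every fold holds for these 2 arrays only.

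Guidance molecules steer growing axons and migrating cells by attraction and repulsion. Ephrins are bound to the membrane and signal on contact to Eph receptor tyrosine kinases, with signalling also running back into the ephrin-bearing cell. Semaphorins signal through plexins, which act on small GTPases, and most secreted class 3 semaphorins need a neuropilin as coreceptor. Netrins attract through Dcc and neogenin and repel through the Unc5 receptors, and Slits repel through Robo receptors. In bone, ephrin-B2 with EphB4, and semaphorins 3A and 4D, are known for signalling between osteoblasts and osteoclasts.

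Sequences are shown for 4 genes that were lower in LM8: Slit3 and Plxna2 had the lowest ratios of LM8 to Dunn, and Epha3 and Slit2 the brightest probe sets among the genes that were 2-fold lower. Each entry holds the 250 bases before the RefSeq start of the gene in GRCm38.p6, written 5′ to 3′ on the gene's strand, with the GC box GGGCGG (the letters recognised by Sp1-type factors, on either strand) in capitals.
Slit3, chr11:35121206-35121455, plus strand: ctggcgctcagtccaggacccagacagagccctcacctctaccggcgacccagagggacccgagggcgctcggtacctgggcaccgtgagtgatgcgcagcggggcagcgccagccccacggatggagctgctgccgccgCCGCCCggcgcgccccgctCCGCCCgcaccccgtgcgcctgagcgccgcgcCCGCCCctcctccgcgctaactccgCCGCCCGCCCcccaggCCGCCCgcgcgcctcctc
Slit2, chr5:47982905-47983154, plus strand: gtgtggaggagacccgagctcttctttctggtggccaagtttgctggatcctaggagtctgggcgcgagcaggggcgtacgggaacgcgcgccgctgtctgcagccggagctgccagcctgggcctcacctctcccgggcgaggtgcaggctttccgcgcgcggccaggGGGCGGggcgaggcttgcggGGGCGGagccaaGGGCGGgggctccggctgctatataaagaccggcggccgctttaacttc
Plxna2, chr1:194619579-194619828, plus strand: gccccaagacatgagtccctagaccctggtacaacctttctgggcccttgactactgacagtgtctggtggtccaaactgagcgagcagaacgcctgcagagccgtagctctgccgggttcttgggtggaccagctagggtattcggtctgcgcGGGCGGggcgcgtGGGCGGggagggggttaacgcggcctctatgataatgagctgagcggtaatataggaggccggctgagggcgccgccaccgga
Epha3, chr16:63864176-63864425, minus strand: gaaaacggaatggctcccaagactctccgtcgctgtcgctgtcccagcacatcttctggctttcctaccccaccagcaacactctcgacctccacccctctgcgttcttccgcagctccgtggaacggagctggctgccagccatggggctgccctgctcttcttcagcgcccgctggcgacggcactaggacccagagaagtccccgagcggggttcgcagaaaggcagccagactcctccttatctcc
The Slit3 window held 6 GC boxes, 1 pair of them overlapping, the Slit2 window 3 and the Plxna2 window 2. The Epha3 window held none. The Slit2 window also held a TATAAA motif that began 28 bases before the start. None of the 4 windows held the AP-1 motif TGANTCA or the E-box CANNTG on either strand.

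RefSeq windows were found for 57 of the 67 genes, with 73 starts in all, and 53 of these windows (72.6%) held a GC box, against 32.7% of 32851 windows of the same length over all genes. Among the genes that were 2-fold lower in LM8, 7 of 11 windows held one, and among guidance genes not measured in either line 20 of 28 did. TATAAA stood in 2 of the 73 windows (12.4% of all windows), TGANTCA in 3 (6.75%) and CANNTG in 34 (66.2%). The windows of the guidance genes had a median GC content of 64.4%, against 52.4% over all windows. A match to these letters describes the window and does not show that a factor binds it.

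Signals are linear intensities computed by the authors with MAS5. A floor was set at each array's median signal, 19.04 in LM8 and 21.15 in Dunn, and a probe set counted as measured when it lay above the floor on at least 1 array. Each gene is represented by its brightest measured probe set, taken by the mean of both log2 signals. Differences are log2 of LM8 over Dunn, genes are counted when at least 2-fold apart, and a ratio with 1 array at its floor is a bound, written as at least N-fold. Signals of different probe sets do not compare transcript amounts between genes. Ratios of 3' to 5' probe sets were 0.789 in LM8 and 0.708 in Dunn for Gapdh, and 1.16 in LM8 and 1.26 in Dunn for beta-actin. Osteoblast markers were present in both lines, with 6 of 6 measured, among them Alpl (1747 in LM8, 1272 in Dunn) and Col1a1 (3553 in LM8, 2410 in Dunn). In that list 0 were 2-fold higher in LM8 and 2 lower, Ibsp (97.1 in LM8, 240.4 in Dunn) and Pth1r (495 in LM8, 1119.7 in Dunn). Over all measured genes, 6.51% were 2-fold higher and 8.84% lower.

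Of the 67 guidance genes, 45 were measured and 22 lay below both floors. In LM8, 3 of the 45 were at least 2-fold higher, 12 were at least 2-fold lower and 30 lay between. Over all 11830 measured genes, 6.51% were 2-fold higher and 8.84% 2-fold lower, so the share of 2-fold higher guidance genes (6.67%) was near the background while that of 2-fold lower ones (26.7%) was above it. The median log2 ratio of the measured guidance genes was -0.38 (quartiles -1.05 and 0.03), against -0.08 (quartiles -0.48 and 0.34) over all measured genes. Of the 45, 31 had a ratio below 0 and 12 above 0. For Epha4 and Efnb3 the LM8 signal only just passed its own floor and Dunn was below its floor, which leaves no direction. With these 2 counted by their floored ratios, 73.3% of the measured guidance genes were below 0, against 55.3% of all measured genes. That 55.3% is also the background for the counts of ratios below 0 by family. Among the 31, Efna3, Efnb2, Plxnc1 and Sema6d changed sign with the scaling of the arrays. In such bulk RNA a lower signal can mean fewer expressing cells or less RNA per cell, which cannot be told apart.

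**Figure D1:**
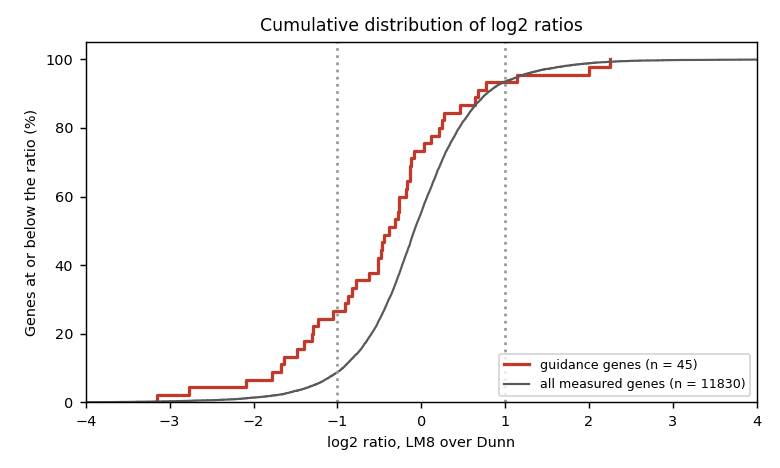
Cumulative share of genes (%) against the log2 ratio of LM8 over Dunn, for the 45 measured guidance genes and for all 11830 measured genes; dotted lines mark 2-fold. The curve of the guidance genes lies left of the other over most of its length, with medians of -0.38 and -0.08, and the curves meet near 2-fold higher.

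The same comparison was made among genes above both floors and by probe set. Among genes above both floors, 9 of 31 guidance genes were 2-fold lower and 1 was 2-fold higher, against 7.95% and 6.2% of all 9856 such genes, and the medians were -0.48 and -0.06. By probe set, 82 of 154 were measured (53.2%, against 55.8% of all probe sets), 24 of them 2-fold lower and 3 higher in LM8, against backgrounds of 7.79% and 5.91%. The probe sets above only 1 floor numbered 10 for LM8 and 19 for Dunn.

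**Figure D2:**
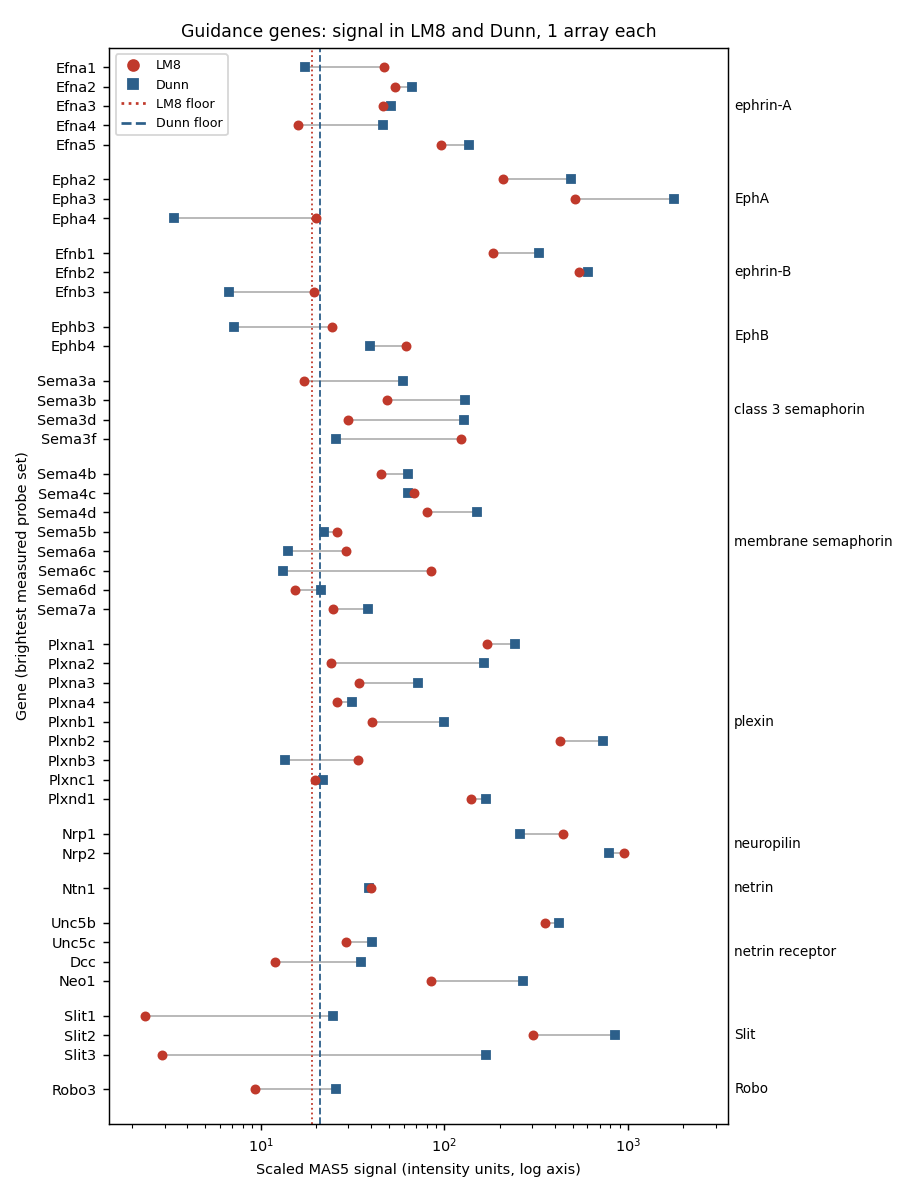
Scaled MAS5 signal on a log axis of each of the 45 measured guidance genes in LM8 (circles) and Dunn (squares), 1 array each, with each array's floor as a vertical line. Most LM8 points lie left of the Dunn points, with the widest such gaps for Slit3, Slit1 and Plxna2. Signals are drawn without the floor, and the Slit1 gap lies mostly below it (at least 1.30-fold). Among the genes that lie the other way are the neuropilins, Sema3f, Sema6c, Ephb4 and Plxnb3, by their brightest probe sets.

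All 3 Slit ligands had ratios below 0, 2 of them past 2-fold. Slit3, a secreted repellent, had a signal of 2.91 in LM8 and 169 in Dunn on its 1 probe set, so that it was at least 8.85-fold lower in LM8 (log2 -3.15). It had the lowest ratio of all guidance genes, with LM8 far under its floor and Dunn well above. Slit2 had signals of 303 in LM8 and 845 in Dunn on its brightest probe set, 38.2 in LM8 and 71.8 in Dunn on the next, and 5.70 in LM8 and 34.3 in Dunn on the dimmest. All 3 were lower in LM8, with log2 ratios of -1.48, -0.91 and -0.85, the last a bound, so the brightest alone passed 2-fold. Slit1 was near the floor, with 2.36 in LM8 and 24.8 in Dunn.

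Their receptors were hardly seen. Robo1, Robo2 and Robo4 were below both floors on all of their probe sets, with highest signals of 5.37, 10.7 and 18.4 in either line. Robo3, which in mammals is a divergent member of the family, had 9.29 in LM8 and 25.8 in Dunn, at least 1.36-fold lower. The differences in Slit ligands thus stood in lines in which 3 of 4 Robo genes lay below the floor.

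Among the Eph receptors, Epha3 and Epha2 were lower in LM8 and the others were dim. Epha3, a receptor tyrosine kinase for ephrin-A ligands, had 517 in LM8 and 1774 in Dunn on its brightest probe set, a 3.43-fold difference. Its other probe sets had 275 in LM8 and 801 in Dunn, 175 in LM8 and 603 in Dunn, and 123 in LM8 and 398 in Dunn. All 4 lay between -1.78 and -1.54 in log2 ratio, with an SD between probe sets of 0.11, which measures probe differences and not replicate error. Epha2, a receptor often studied in tumours, had 209 in LM8 and 490.5 in Dunn on 1 probe set, 2.35-fold lower. Epha1, Epha5, Epha6, Epha7, Epha8 and Epha10 were below both floors, and Epha4 had 19.95 in LM8 and 3.38 in Dunn on the 1 of its 5 probe sets that was measured.

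The ephrin-A ligands, which are anchored by a lipid, had ratios below 0 in 4 of 5 genes, 1 of them past 2-fold. Efna4 had 16.1 in LM8 and 46.7 in Dunn, at least 2.45-fold lower on its 1 probe set. Efna1 was at least 2.21-fold higher on its brighter probe set (46.8 in LM8, 17.6 in Dunn) and at least 2.04-fold lower on the other (16.4 in LM8, 38.9 in Dunn), so it has no settled direction. Efna5 (95.5 in LM8, 137 in Dunn), Efna2 (53.9 in LM8, 66.9 in Dunn) and Efna3 (46.6 in LM8, 51.3 in Dunn) had lower signals in LM8 by less than 2-fold, and Efna3 changed sign among the scalings of the arrays.

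In the EphB and ephrin-B system no gene taken by the symbol rule passed 2-fold, and Ephb2 was not among those taken. Efnb2, the transmembrane ligand known from blood vessels and from osteoclast to osteoblast signalling, had 538 in LM8 and 607 in Dunn. Its 4 probe sets spanned log2 ratios of -0.43 to 0.01, close to each other and to 0. Efnb1, which in mice is needed for normal skeletal patterning, had 185 in LM8 and 328 in Dunn on its brightest probe set, 99.0 in LM8 and 189 in Dunn on the next, and 26.6 in LM8 and 109.6 in Dunn on the dimmest. These are log2 ratios of -0.83, -0.94 and -2.04, all lower in LM8, with only the dimmest past 2-fold. Ephb4, the receptor that pairs with ephrin-B2, had 61.6 in LM8 and 39.5 in Dunn (log2 0.64). Ephb3 had 24.6 in LM8 and 7.13 in Dunn, and Ephb1 and Ephb6 were below both floors.

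**Figure D3:**
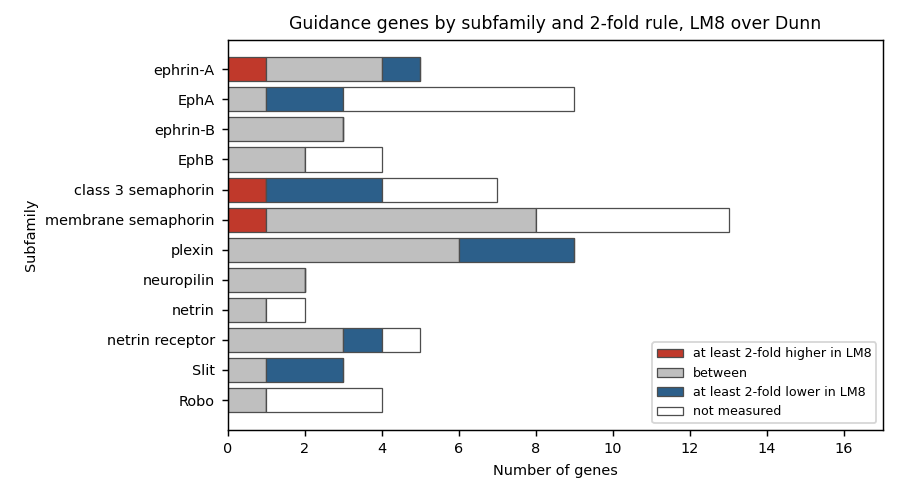
Number of guidance genes in each subfamily that were at least 2-fold higher in LM8, between, at least 2-fold lower in LM8, or not measured. The lower genes lie in the ephrin-A, EphA, class 3 semaphorin, plexin, netrin receptor and Slit subfamilies, and 6 of 9 EphA and 3 of 4 Robo genes were not measured.

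All 4 measured class 3 semaphorins were past 2-fold, 3 of them lower in LM8. Sema3d had 29.96 in LM8 and 128 in Dunn, 4.26-fold lower, and its dimmer probe set 3.34 in LM8 and 24.6 in Dunn, a bound near the floor. Sema3a, a chemorepellent that in mice also protects bone, had 17.3 in LM8 and 59.3 in Dunn, at least 3.11-fold lower. Its next probe set had 22.9 in LM8 and 43.2 in Dunn (log2 -0.92), the same way and under 2-fold. Sema3b, studied as a tumour suppressor in human lung cancer, had 48.97 in LM8 and 129 in Dunn (2.64-fold lower). A second probe set of it had 4.43 in LM8 and 71.4 in Dunn, at least as far apart (log2 -1.91).

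Sema3f, a ligand that acts through neuropilin 2, went the other way on 1 probe set only. A probe set with the suffix x_at had 123 in LM8 and 25.7 in Dunn, 4.77-fold higher, while one with the suffix a_at had 30.5 in LM8 and 32.6 in Dunn. The suffix of the first marks probes that may hybridise to other transcripts, and without probe sets marked in this way or as shared, a choice made after the values were seen, the log2 ratio of Sema3f was -0.10. Sema3c, Sema3e and Sema3g were below both floors.

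The membrane semaphorins of classes 4 to 7 were mostly dim and under 2-fold. Sema4d, a ligand of plexin-B1 that in mice is made by osteoclasts, had 80.5 in LM8 and 151 in Dunn (1.87-fold lower). Sema4c had 68.8 in LM8 and 63.3 in Dunn, Sema4b 45.3 in LM8 and 63.2 in Dunn, and Sema7a, a lipid-anchored ligand of plexin-C1, 24.9 in LM8 and 38.3 in Dunn. Sema6c had opposing probe sets, at least 4.0-fold higher on the brighter (84.7 in LM8, 13.2 in Dunn) and at least 2.12-fold lower on the other (11.2 in LM8, 40.5 in Dunn). It therefore has no settled direction. Sema5b, Sema6a and Sema6d had signals under 30 on both arrays, and Sema4a, Sema4f, Sema4g, Sema5a and Sema6b were below both floors.

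All 9 plexins were measured, and 8 had ratios below 0. Plxna2, a receptor for class 3 and class 6 semaphorins, had 24.2 in LM8 and 165 in Dunn, 6.82-fold lower with both arrays above their floors. Its next probe sets had 8.81 in LM8 and 117 in Dunn, and 1.14 in LM8 and 102 in Dunn. These 3 spanned log2 ratios of -2.77 to -2.42, the last 2 as bounds, and the other probe set was not measured. Plxnb1, the receptor for Sema4D, had 40.2 in LM8 and 99.3 in Dunn (2.47-fold lower). Its other probe set had 16.9 in LM8 and 34.5 in Dunn, a bound of -0.86 that did not pass 2-fold. Plxna3 had 34.5 in LM8 and 71.6 in Dunn (2.07-fold lower), and 18.6 in LM8 and 55.2 in Dunn on the other, a bound of -1.54. With each of the 4 other scalings of the arrays the brighter probe set was under 2-fold, at log2 ratios of -0.97 to -0.81.

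Between the 2-fold limits lay Plxnb2 (424 in LM8, 729.7 in Dunn; log2 -0.78), Plxna1 (171 in LM8, 244 in Dunn; log2 -0.51) and Plxnd1, which in vessels responds to Sema3E (140.5 in LM8, 169 in Dunn; log2 -0.27). Plxna1 was past 2-fold on its dimmer probe set (21.6 in LM8, 46.0 in Dunn). Plxna4 and Plxnc1 were near the floor, and Plxnb3 (33.7 in LM8, 13.6 in Dunn) was the 1 plexin with a ratio above 0.

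The neuropilins, coreceptors of class 3 semaphorins and of VEGF, were bright in both lines. Nrp1 had 441 in LM8 and 257 in Dunn on its brightest probe set, a log2 ratio of 0.78. Its other probe sets had 209 in LM8 and 161 in Dunn, 137 in LM8 and 95.6 in Dunn, and 101 in LM8 and 69.6 in Dunn. All 4 were higher in LM8, by log2 ratios of 0.38 to 0.78, under 2-fold in the scaling used here (1.02 for the brightest with scaling on hybridisation controls). Nrp2 had 955 in LM8 and 789 in Dunn on its brightest probe set (log2 0.28), but its other 3 lay at -0.27, -0.52 and -0.61, so its sign depends on the probe set.

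Of the netrin system, Neo1 was the 1 gene past 2-fold. Neo1 encodes neogenin, a receptor for netrins and repulsive guidance molecules, and had 84.2 in LM8 and 268 in Dunn on a probe set whose probes can be shared between transcripts (3.18-fold lower). An unshared probe set had 44.8 in LM8 and 114 in Dunn (log2 -1.35). The other 3 were dimmer, at -0.93 (a bound, with LM8 below its floor), -0.53 and -0.04. The last (20.5 in LM8, 17.8 in Dunn) had LM8 just over its floor and Dunn below its own, which leaves no direction. Unc5b, a repulsive netrin receptor, was bright in both lines with 352 in LM8 and 422 in Dunn, and its probe sets had log2 ratios of -0.26 and -0.19. Unc5c had 29.3 in LM8 and 40.6 in Dunn. Dcc had 12.0 in LM8 and 35.0 in Dunn (at least 1.84-fold lower) with its other probe sets below both floors. Ntn1, the netrin ligand itself, had 39.8 in LM8 and 39.0 in Dunn, and Ntn4 and Unc5a were below both floors.

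**Figure D4:**
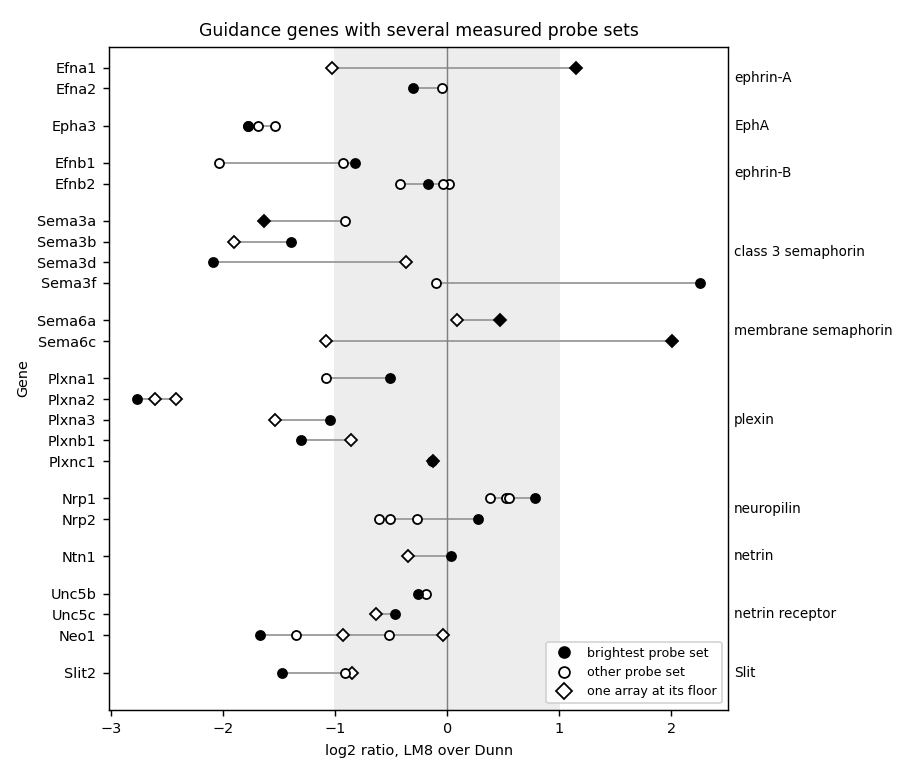
Log2 ratio of LM8 over Dunn for each measured probe set of the 23 guidance genes with at least 2, with the brightest filled and those with 1 array at its floor as diamonds; the grey band is less than 2-fold. Epha3 and Plxna2 have all probe sets close together beyond 2-fold lower, while Efna1, Sema3f and Sema6c have probe sets on both sides of 0 or near it.

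Agreement between probe sets differed by gene. Of the 15 genes past 2-fold, 12 had at least 2 measured probe sets. In 4 of these, Epha3, Plxna2, Plxna3 (in the scaling used here only) and Sema3b, all measured probe sets were at least 2-fold lower, and in 3, Efna1, Sema3f and Sema6c, another probe set had the opposite sign. For Sema3f that sign is not settled, as its other measured probe set was at -0.10, close to 0. Among the 23 guidance genes with at least 2 measured probe sets, 4 were thus 2-fold lower and 0 2-fold higher on all, against 2.93% and 2.05% of all 5521 such genes. Within a gene, log2 ratios of its probe sets had a pooled SD of 0.66 for guidance genes and 0.46 over all genes. Efna4, Epha2 and Slit3 each rested on 1 probe set.

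By role, 6 of 24 measured ligands were 2-fold lower and 3 higher, with a median log2 ratio of -0.35. Of 19 measured receptors, 6 were lower and 0 higher, with a median of -0.47. Over all measured genes 8.84% were 2-fold lower and 6.51% higher, with a median of -0.08, which is also the background for the medians by system. The 3 higher ligands were Efna1, Sema3f and Sema6c, whose probe sets disagreed. By system, the median was -0.18 for Eph and ephrin genes (13 measured), -0.27 for semaphorins and plexins with neuropilins (23 measured), -0.47 for netrins and their receptors (5 measured) and -0.96 for Slits and Robos (4 measured). Closest to the 2-fold limit were Plxna3 (2.07-fold) inside it and Sema4d (1.87-fold) outside it.

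Genes of signalling proteins that act inside the cell below these receptors formed a second list. Of its 43 measured effectors among 49 on the array, 3 were 2-fold higher in LM8, 2 lower and 38 between, against 6.51% higher and 8.84% lower over all measured genes, with a median log2 ratio of -0.16 against -0.08. Dpysl2, which encodes a microtubule-binding mediator of semaphorin 3A signalling, had 1361 in LM8 and 475 in Dunn (2.87-fold higher), while another probe set stood at 0.13 in log2 ratio. Dpysl3, of the same family, had 874 in LM8 and 402 in Dunn, 2.17-fold higher on its brightest of 3 probe sets, and all 3 were past 2-fold. Srgap3, a GTPase-activating protein that binds Robo, had 112 in LM8 and 281 in Dunn (2.51-fold lower), with another probe set at 0.14. Farp1, a guanine nucleotide exchange factor gene, had 264 in LM8 and 114 in Dunn (2.31-fold higher), with another probe set at -0.31. The other lower effector was Nck1, an adaptor gene (94.7 in LM8, 203 in Dunn), named here after its value was seen.

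Of 19 measured genes among 28 other ligands, coreceptors and sheddases, 0 were 2-fold higher and 2 lower, against 6.51% and 8.84% over all genes, which for the lower ones is near the background, with a median of -0.26 against -0.08. These were the neuropilin and Flt1 ligand gene Vegfb (99.3 in LM8, 211 in Dunn) and Ntn5 (6.75 in LM8, 38.3 in Dunn, at least 2.01-fold lower). Flrt3, a ligand of Unc5 receptors, had 7.94 in LM8 and 36.1 in Dunn, at least 1.90-fold lower. It is named here although this bound did not pass 2-fold.

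Most markers of cells that carry many guidance receptors were low in both lines. Vwf in Dunn (153) and S100b in LM8 (96.9) lay above the 75th percentile of their array, 96.1 in Dunn and 92.2 in LM8. Of 6 endothelial genes, Vwf alone was measured (67.6 in LM8, 153 in Dunn) and Pecam1, Cdh5, Tek, Tie1 and Emcn were below both floors. Of 7 neuron genes, 3 were measured, among them Tubb3 (42.3 in LM8, 12.8 in Dunn), the highest signals of all 7 summed to 116 in LM8 and 73.9 in Dunn, and Map2, Snap25, Gap43 and Stmn2 were below both floors. Of 4 glial genes 3 were measured (sums over all 4 of 134 in LM8 and 89.1 in Dunn), with S100b at 96.9 in LM8 and 1.10 in Dunn. The highest signals of all 7 leukocyte genes summed to 92.8 in LM8 and 185 in Dunn, with 4 of 7 measured and Ptprc below both floors. Csf1r (27.0 in LM8, 75.5 in Dunn) and Lyz2 (1.91 in LM8, 45.0 in Dunn) were the 2 of them at least 2-fold lower in LM8, though another Csf1r probe set stood at 0.48 in log2 ratio. The highest signals of all 5 epithelial genes summed to 76.0 in LM8 and 96.7 in Dunn, with 2 of 5 measured. Across these marker lists the 2-fold differences went both ways, where 6.51% of all measured genes were 2-fold higher and 8.84% lower. Vwf was also lower in LM8 (2.26-fold), while Tubb3 (at least 2.0-fold) and S100b (at least 4.58-fold) were higher. The part of these markers in the guidance results was not tested.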

How the data were processed

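The deposited values are linear probe set intensities that the authors made with MAS5, per the submitters' processing notes. Its version and settings are not given in the sources used here. Both deposited arrays have a 2% trimmed mean of 100, and their experiment sheets give the same chip type.

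Control probe sets (64) were set aside and the other 45037 rescaled to a common 2% trimmed mean, by 1.00 on both arrays. Signals under the floor were set to it. Annotation symbols were updated by gene identifier against GRCm38.p6, which matched all 154 guidance probe sets. Without replicates, genes were described by a 2-fold rule and by medians beside those of all genes. The members, gene lists and rules were chosen with earlier results of these data known. Every guidance gene could be named, and up to 4 genes past 2-fold from the lists of effectors and of other ligands, coreceptors and sheddases. Nck1 and Flrt3 were named outside this rule. The genes whose sequences are printed were chosen after their values were seen. Alternatives were 4 other scalings (array medians, quantile, lowess with span 0.3, hybridisation controls), a higher floor or none, the array median added as a pseudocount, other probe set summaries and stricter fold rules. The steps were tested on simulated arrays. Computation used scipy 1.17.1, numpy 2.4.6, statsmodels 0.14.6 and pandas 2.3.3 under Python 3.11.15, with figures drawn in matplotlib 3.10.9.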

Additional observations from a re-analysis of the deposited data

How the results depend on the processing

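Against 3 higher and 12 lower guidance genes, the 4 other scalings gave 3 to 4 higher (6.96% to 10.5% of all genes) and 10 to 11 lower (5.4% to 7.9% of all genes), and the median log2 ratio of -0.38 ranged from -0.29 to -0.14. The median of all genes moved as well, to 0.07 with arrays centred on their medians and 0.16 with scaling on hybridisation controls. The median of ephrin-B and of membrane semaphorin genes changed sign among the scalings, as did Efna3, Efnb2, Efnb3, Epha4, Plxnc1 and Sema6d. A floor at the 75th percentile left 20 measured genes, 0 higher and 4 lower (Epha2, Epha3, Neo1, Slit2), with a median of -0.51, against 5.13%, 5.41% and a median of -0.02 over all genes. With neither floor nor filter, 12 were higher and 19 lower of 67, against 14.0% and 18.4% of all genes. A pseudocount gave 2 higher and 10 lower (3.31% and 5.18% of all genes), with a median of -0.23 against -0.13 over all genes. The mean of probe sets gave 1 higher gene (Sema3f) and 12 lower, 11 of them in common, against 5.29% and 7.76% of all genes. Neo1 was then at -0.90 and Efnb1 at -1.27. The median of probe sets gave 1 higher and 10 lower (5.38% and 7.77% of all genes), with Neo1 at -0.93 and Slit2 at -0.91. At 3-fold, 2 were higher and 6 lower, and with all measured probe sets past 2-fold 0 were higher and 7 lower, 3 of these with 1 probe set. The share over all measured genes was not computed for either of these rules, so their counts stand without a background. Without shared or possibly cross-hybridising probe sets, an alternative chosen after seeing the data, 2 were higher and 12 lower (6.67% and 8.72% of all genes). Sema3f changed from 2.25 to -0.10. Epha3 was past 2-fold in all 10 alternatives for single genes and Sema3a in all 9 that measured it. Plxna3 was so in 4 of 9. No paired analysis was possible because each line has 1 array. Signals within about 2-fold of the floor are unreliable, a limit that was not derived from these data. Where both signals of a probe set lie there, the ratio gives no reliable direction. Where only 1 does, as in LM8 for Plxna2, Sema3d and Plxna3 and in Dunn for Sema3f, the size of the fold is uncertain. Slit3, Efna4 and Sema3a have LM8 only as a bound.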
